A study of Mus musculus with 2 samples.

Results

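The genes described here are 35 genes of sterol and fatty acid synthesis and its control. They were taken from a list of gene symbols, matched through the accession of each array probe. The matching used no measured value, but the list was drawn up with earlier results of these data known. All 35 had at least 1 probe among 56 probes in all, and 33 were detected, out of 13902 detected genes on the arrays and 31926 genes or accessions with a measured value. There were 18 enzymes of the sterol pathway, 12 genes of fatty acid synthesis, of which 10 were detected, and 5 regulators.

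The material was ventral prostate of mice at 6 months of age, of the strain that the labels spell FBV/N in one field and FVB/N in another. RNA of 6 wild type mice formed 1 pool, and RNA of 6 mice carrying the ARR2PB-miR32 transgene formed the other. ARR2PB is a modified probasin promoter that is active in prostate epithelium and needs androgen, so the microRNA is driven mainly in epithelial cells. Both pools were hybridised together to an Agilent mouse array, and the hybridisation was repeated with the dyes swapped. The transgenic pool was in Cy3 on array 1 and in Cy5 on array 2. The 2 arrays are technical replicates of 1 pool per genotype. They carry no spread between mice, so no test was possible and every ± below is the SD of 2 arrays. In bulk tissue, fewer cells of a type and less RNA per cell cannot be told apart.

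The microRNA of the transgene silences messenger RNAs that pair with its seed, bases 2 to 8 from the 5′ end. The mature mouse sequence in RefSeq (GRCm38.p6, chr4:56895272-56895293, minus strand) is shown to identify the agent, with the seed in capitals.
mmu-miR-32-5p: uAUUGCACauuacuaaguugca

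Cholesterol and fatty acids are both built from cytosolic acetyl-CoA. The sterol branch runs through mevalonate and farnesyl pyrophosphate to squalene, lanosterol and cholesterol. The fatty acid branch runs through malonyl-CoA to palmitate, which is then elongated and desaturated. Transcription of both branches is driven by the sterol regulatory element binding proteins. Srebf2 mainly drives sterol genes and Srebf1 mainly fatty acid genes. Their precursors are escorted out of the endoplasmic reticulum by Scap when sterols are low, and Insig proteins hold them back when sterols are high. In prostate epithelium this system is also raised by androgen and is known for its activity in prostate cancer.

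Sequences upstream of the start site were searched for the boxes that these factors and their partners recognise. RefSeq promoters (GRCm38.p6), from 250 bases before to 50 after the start, were given for 29 of the 35 genes. Those of Fdps, Fdft1, Sqle, Fads1, Scd1 and Scd2 were not analysed here. CCAAT, the box of the factor NF-Y that works beside the sterol regulatory proteins, was present on either strand in the promoters of 24 of 29 genes (82.8%). It was present in 42.8% of 8781 detected genes with a promoter and in 41.1% of all 27025 genes. By branch, it was found in 14 of 15 sterol enzymes, 6 of 9 fatty acid genes and 4 of 5 regulators. GGGCGG, the Sp1 box, was present in 79.3% of the 29 genes, against 68.1% of detected genes and 38.2% of all. CACGTG, an E-box, was present in 20.7% against 12.0% and 8.09%. TCACNCCAC, a core of the sterol regulatory element, was found in Hmgcs1 alone, 3.45% of the 29 genes, against 1.42% and 1.44%. Each motif was searched on both strands, matches of different motifs could share bases, and a match is a description of the sequence and not a site of binding. Genes with several promoters were counted once if any of them matched.

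The 250 bases before the start are printed for 5 genes. These show the boxes in a gene of the upper sterol pathway, in late sterol steps with opposite ratios, and in fatty acid genes. Capitals mark CCAAT, its reverse complement ATTGG, and the sterol regulatory element. Each is written 5′ to 3′ along the gene's strand.
Hmgcs1, which carries the element and 3 CCAAT boxes, chr13:119690101-119690350, plus strand: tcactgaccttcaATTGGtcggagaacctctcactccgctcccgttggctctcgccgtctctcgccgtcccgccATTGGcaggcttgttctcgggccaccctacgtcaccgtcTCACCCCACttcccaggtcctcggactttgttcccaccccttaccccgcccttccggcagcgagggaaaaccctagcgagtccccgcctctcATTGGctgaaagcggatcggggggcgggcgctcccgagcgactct
Nsdhl, a late sterol enzyme that was higher, with 2 CCAAT boxes, chrX:72918271-72918520, plus strand: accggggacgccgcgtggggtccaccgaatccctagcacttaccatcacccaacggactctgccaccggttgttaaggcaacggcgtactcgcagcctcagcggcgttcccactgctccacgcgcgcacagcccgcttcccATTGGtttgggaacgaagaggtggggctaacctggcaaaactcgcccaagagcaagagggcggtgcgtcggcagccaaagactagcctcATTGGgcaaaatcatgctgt
Ebp, the next isomerase of that stretch, which was lower, with 2 CCAAT boxes, chrX:8193513-8193762, minus strand: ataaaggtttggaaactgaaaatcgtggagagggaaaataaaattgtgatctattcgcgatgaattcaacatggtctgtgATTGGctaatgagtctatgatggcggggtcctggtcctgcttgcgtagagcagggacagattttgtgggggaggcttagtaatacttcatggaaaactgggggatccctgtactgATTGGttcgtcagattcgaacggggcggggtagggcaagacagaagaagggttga
Fasn, fatty acid synthase, with 3 CCAAT matches, of which 2 share bases, chr11:120824548-120824797, minus strand: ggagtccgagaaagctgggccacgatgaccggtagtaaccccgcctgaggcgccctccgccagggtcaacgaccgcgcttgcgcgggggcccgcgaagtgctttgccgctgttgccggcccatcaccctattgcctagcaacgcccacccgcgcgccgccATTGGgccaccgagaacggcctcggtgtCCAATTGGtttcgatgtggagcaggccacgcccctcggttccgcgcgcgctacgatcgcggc
Thrsp, a fatty acid gene that was higher, with 2 CCAAT boxes, chr7:97417551-97417800, minus strand: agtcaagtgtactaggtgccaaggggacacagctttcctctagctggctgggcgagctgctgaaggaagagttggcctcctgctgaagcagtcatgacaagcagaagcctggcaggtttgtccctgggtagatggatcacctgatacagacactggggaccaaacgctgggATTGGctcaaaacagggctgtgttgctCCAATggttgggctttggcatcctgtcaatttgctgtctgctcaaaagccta
The promoters of Nsdhl and Ebp had the same number of CCAAT boxes. These genes were picked for ratios of opposite sign, given below, and a relation of boxes to ratios was not tested.

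Most sterol enzymes were slightly higher in the transgenic pool, while the fatty acid genes were mixed. Of 18 sterol enzymes, 14 had a log2 ratio of transgenic over wild type above 0 on both arrays and 2 below 0 on both. Of 10 fatty acid genes, 4 were above and 1 was below on both arrays, and of 5 regulators 1 was above and 1 below. Over all 33 genes this made 19 above and 4 below, where 24.6% of all detected genes were above 0 on both arrays and 27.3% were below. Differences were small. The median log2 ratio was 0.34 for sterol enzymes, 0.04 for fatty acid genes and 0.35 for regulators, against 0.01 for all detected genes. On array 1 alone these medians were 0.25, 0.18 and 0.74, and on array 2 alone 0.41, 0.27 and -0.04. The gap between the branch medians was therefore 0.29 in the mean of arrays and 0.070 and 0.14 on single arrays, so its size depended on averaging the arrays first. The median of the regulators changed sign between the arrays.

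A gene was called where the arrays averaged to a difference of 2-fold or more (a log2 ratio of 1) and each array by itself gave 1.5-fold or more with that sign. By this rule 1 of the 33 genes was called higher, Thrsp, beside 1.09% of all detected genes. Another 1 was called lower, Ebp, beside 3.53% of all. At a lower fold, 1.5-fold in the mean with the same sign on both arrays, 5 genes were higher (Fdft1, Sqle, Dhcr7, Thrsp and Srebf1), beside 3.4% of detected genes. The only gene lower at that fold was Ebp, beside 7.75%. Of these 5 genes, 3 are sterol enzymes.

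**Figure D1:**
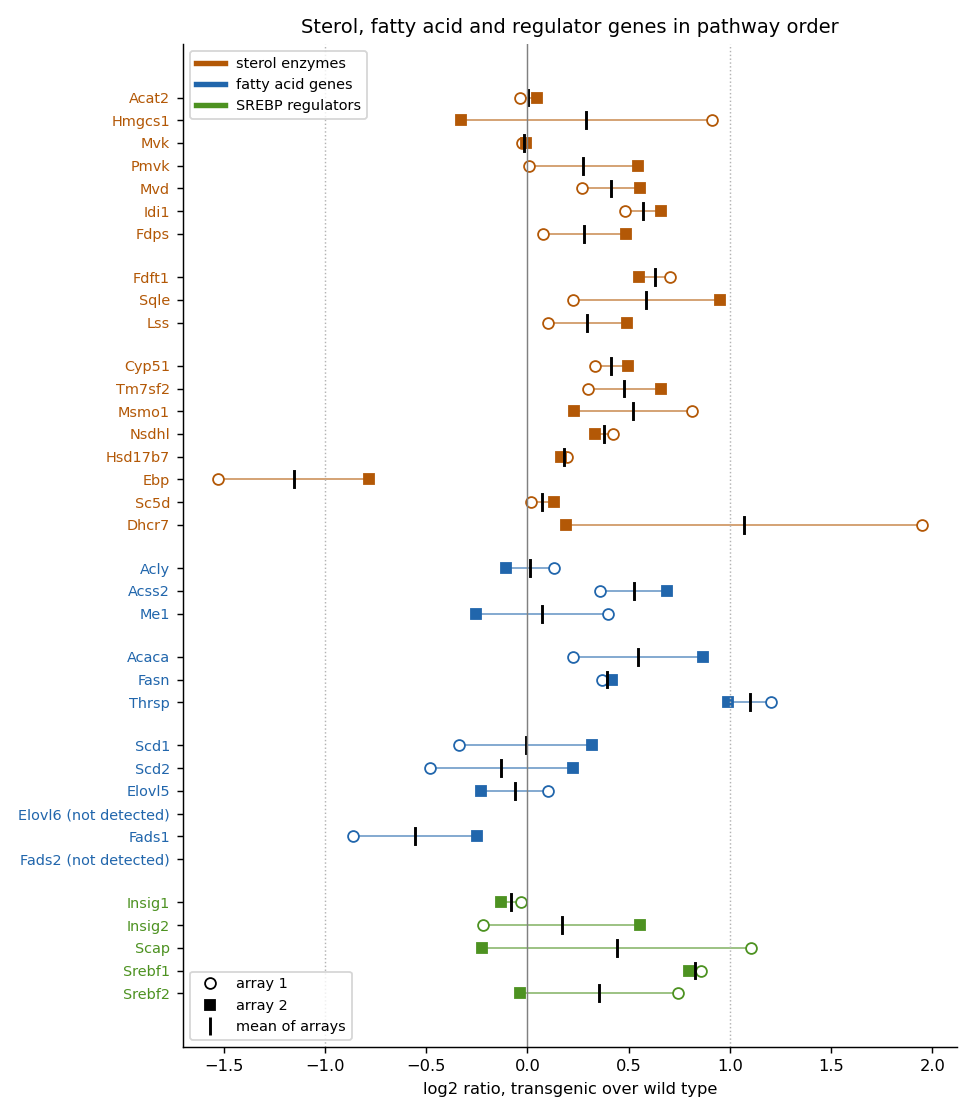
Log2 ratio of transgenic over wild type (x axis) for each gene in pathway order (y axis), with array 1 as open circles, array 2 as filled squares and their mean as a black bar. Dotted lines mark a 2-fold difference. From Pmvk to Hsd17b7 every gene lies above 0 on both arrays, Ebp lies below 0 on both, and the desaturase and elongase genes lie around or below 0.

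The upper sterol pathway, from acetyl-CoA to farnesyl pyrophosphate, had 7 detected genes with a median log2 ratio of 0.28. Idi1, the isomerase that makes dimethylallyl pyrophosphate, had log2 intensities of 9.005 and 8.92 in the wild-type pool on arrays 1 and 2, and of 9.48 and 9.58 in the transgenic pool. Both transgenic values lay above both wild-type values, and the log2 ratio was 0.57 ± 0.13. Mvd, the decarboxylase that yields isopentenyl pyrophosphate, stood at 8.48 and 8.17 in the wild type and at 8.75 and 8.73 in the transgenic pool, a ratio of 0.41 ± 0.20. Pmvk, the second kinase of mevalonate, was at 0.28 ± 0.38, and its ratio on array 1 was 0.01. Its dimmer probe gave 1.21 on array 1 and -0.50 on array 2. Fdps, which makes farnesyl pyrophosphate, was at 0.28 ± 0.29. On array 2 the ratios of Pmvk and Fdps were 0.55 and 0.49, so most of their mean came from that array.

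The entry of the pathway was near 0 or unsettled under loess, while Feature Extraction's ratios put Acat2 at 0.32 and Mvk at 0.25, and the series table put Acat2 at 0.25. Acat2, the thiolase that joins acetyl-CoA units, was at 0.00 ± 0.06, and Mvk, the mevalonate kinase, at -0.02 ± 0.01. Mvk was the only detected gene of the 33 that was not well above background in every pool and array, and it missed this in the transgenic pool on array 2. Hmgcs1, the synthase of HMG-CoA, had log2 intensities of 7.95 and 9.12 in the wild type and of 8.86 and 8.79 in the transgenic pool. The pools overlapped and the log2 ratios were 0.91 and -0.33, so its direction was not settled.

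The enzymes that lead from farnesyl pyrophosphate to lanosterol were above 0 on both arrays in 3 of 3 cases, beside 24.6% of all detected genes. Their median was 0.59. Fdft1, the squalene synthase, had log2 intensities of 9.09 and 9.39 in the wild type and of 9.80 and 9.94 in the transgenic pool. Its values did not overlap between pools, at 0.63 ± 0.11 or 1.55-fold. Sqle, the squalene epoxidase that is a control point of the pathway, had 8.73 and 8.35 in the wild type and 8.96 and 9.29 in the transgenic pool. The transgenic values were again the higher ones, with ratios of 0.22 on array 1 and 0.95 on array 2, a mean of 0.59 ± 0.51. Lss, which closes squalene epoxide into lanosterol, was at 0.30 ± 0.28, and its dimmer probe gave 0.00040.

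From lanosterol to cholesterol, 7 of 8 enzymes were above 0 on both arrays, beside 24.6% of all detected genes. The median of the 8 was 0.40. Cyp51, the demethylase that acts on lanosterol, was at 0.41 ± 0.11, and its 3 probes ranged from 0.21 to 0.41. Tm7sf2, a sterol reductase, was at 0.48 ± 0.25. The 3 enzymes that strip the methyl groups were Msmo1 at 0.52 ± 0.41, Nsdhl at 0.38 ± 0.06 and Hsd17b7 at 0.18 ± 0.02. Nsdhl had log2 intensities of 8.43 and 8.45 in the wild type and of 8.85 and 8.79 in the transgenic pool. Its values did not overlap between pools, and its 3 probes gave 0.38, 0.42 and 0.67.

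Ebp, the sterol isomerase that follows, ran against its neighbours. It had log2 intensities of 12.99 and 11.81 in the wild type and of 11.46 and 11.03 in the transgenic pool. Both transgenic values were the lower ones. The log2 ratios were -1.53 on array 1 and -0.78 on array 2, with a mean of -1.16 ± 0.53, or 2.23-fold lower. It rests on 1 probe, and the arrays differed by more than the size of most ratios in the pathway. Sc5d, the desaturase of the next step, was at 0.07 ± 0.08. The enzymes named before and after Ebp thus had small positive ratios, while Ebp alone was lower past the fold.

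Dhcr7, the reductase that ends one route to cholesterol, had 2 detected probes that gave different sizes. Its brighter probe had 8.26 and 9.27 in the wild type and 10.21 and 9.46 in the transgenic pool. The log2 ratios were 1.95 and 0.19, with a mean of 1.07 ± 1.24, and it failed the rule because of array 2. Its dimmer probe had 7.63 and 7.31 in the wild type and 8.08 and 7.75 in the transgenic pool, with 0.45 on each array. Both probes were above 0 on both arrays, and the size of the difference was not settled.

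In the fatty acid branch, the 3 listed genes of chain synthesis had higher mean ratios than the 4 detected genes that modify the chain. The 3 chain synthesis genes were above 0 on both arrays, beside 24.6% of all detected genes, with a median of 0.55. Thrsp, a lipogenic regulator also called Spot14 that is abundant in fat and liver, had log2 intensities of 8.26 and 8.04 in the wild type and of 9.47 and 9.04 in the transgenic pool. The pools did not overlap, and the ratio was 1.099 ± 0.15 or 2.14-fold. Fasn, the fatty acid synthase, had 12.29 and 12.30 in the wild type and 12.66 and 12.72 in the transgenic pool. It gave 0.39 ± 0.03, the smallest SD of this branch, and its dimmer probe gave 0.19. Acaca, the acetyl-CoA carboxylase that makes malonyl-CoA, was at 0.55 ± 0.46, with 0.23 on array 1 and 0.87 on array 2. Its other 3 probes were not detected.

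Genes that supply the branch were uneven. Acss2, which makes acetyl-CoA from acetate, had 7.47 and 7.36 in the wild type and 7.83 and 8.04 in the transgenic pool, a ratio of 0.52 ± 0.23, while its dimmer probe gave 0.05. Acly, which makes acetyl-CoA from citrate, was at 0.01 ± 0.17. Me1, the malic enzyme that supplies NADPH, was at 0.07 ± 0.46, with opposite signs on the arrays. The transcript of Acss2 thus had a higher ratio than that of Acly by its brighter probe, and its dimmer probe was near 0 as Acly was.

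None of the 4 detected desaturase and elongase genes was above 0 on both arrays, beside 24.6% of all detected genes. With 4 genes, a count of 0 lies near that share. Their median was -0.10, with -0.41 on array 1 and -0.00076 on array 2. Elovl7, an elongase outside the 35 genes and given below, was higher at 0.59 ± 0.48. The desaturases that introduce the double bond of oleate, Scd1 and Scd2, were at -0.01 ± 0.46 and -0.13 ± 0.50, each below 0 on array 1 and above it on array 2. Scd2 had log2 intensities of 14.97 and 14.65 in the wild type and of 14.48 and 14.88 in the transgenic pool, which overlapped. Elovl5, an elongase of polyunsaturated chains, was at -0.06 ± 0.23, and its dimmer probe gave 0.11. Fads1, a desaturase of polyunsaturated chains, had 7.93 and 7.71 in the wild type and 7.06 and 7.46 in the transgenic pool. Both transgenic values were lower, at -0.56 ± 0.43, short of the lower fold. Elovl6, which elongates palmitate, and Fads2, the partner of Fads1, were not detected. Both were well above background in Cy3 on both arrays and in Cy5 on neither.

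**Figure D2:**
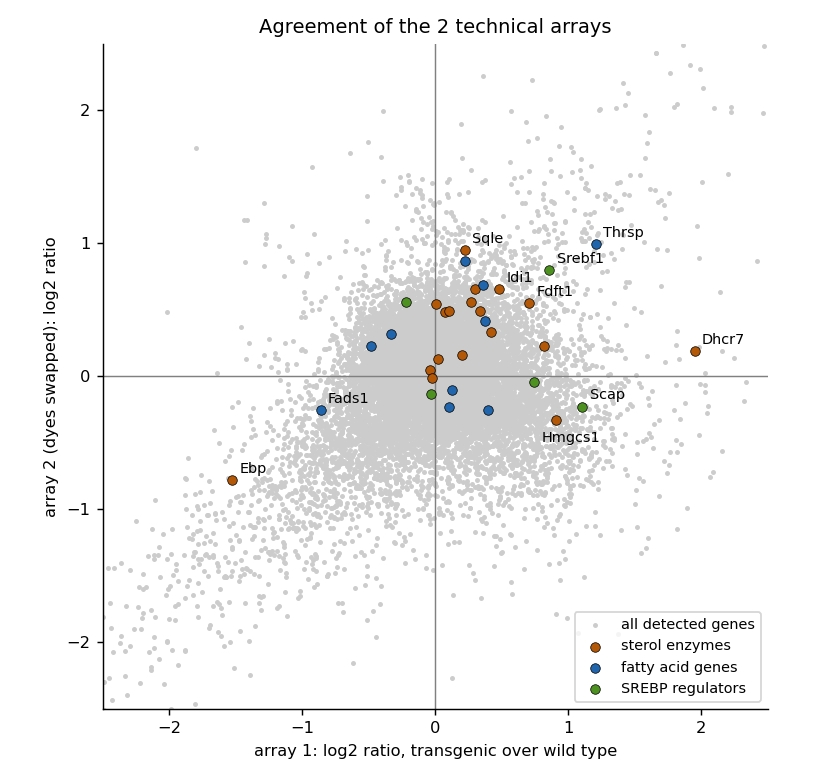
Log2 ratio on array 1 (x axis) against array 2 with the dyes swapped (y axis) for all detected genes in grey and the 33 genes in colour by branch. The 161 genes beyond 2.5 in size on an array are not drawn. Most sterol enzymes lie in the upper right, Ebp and Fads1 lie in the lower left, and Hmgcs1, Scap and Dhcr7 lie far to the right with array 2 values of -0.33, -0.23 and 0.19.

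Among the regulators, Srebf1 was the gene whose arrays gave nearly the same ratio. It had log2 intensities of 12.47 and 12.69 in the wild type and of 13.33 and 13.49 in the transgenic pool. The pools did not overlap, and the ratio was 0.83 ± 0.04 or 1.78-fold. Srebf2, its sterol counterpart, had 7.21 and 7.48 in the wild type and 7.96 and 7.44 in the transgenic pool. These values overlapped, and the ratios were 0.74 and -0.04. Scap, the escort, was at 0.44 ± 0.94, with 1.11 on array 1 and -0.23 on array 2. Insig1, the retention protein that is itself a target of the pathway, was at -0.08 ± 0.07 by its brighter probe and at 0.33 by the other. Its other probe was above 0 on both arrays (0.29 and 0.36), so the direction of Insig1 differed by probe. Insig2 was at 0.17 ± 0.55 with opposite signs on the arrays, and its dimmer probe gave 1.41 and -0.96. Srebf1 was thus the only regulator above 0 on both arrays by the probe used.

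More than 1 probe was detected for 11 of the 33 genes, and in 9 of these the probes had means of the same sign. The exceptions were Insig1 and Elovl5, and the probes of Dhcr7 alone lay more than 0.5 apart. The median SD of the arrays was 0.25 over the 33 genes and 0.24 over all detected genes. In 8 of the 33 genes the SD was above 0.5. The SD of a single gene ranged widely, from 0.01 in Mvk to 1.24 in Dhcr7, and is given beside most ratios.

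**Figure D3:**
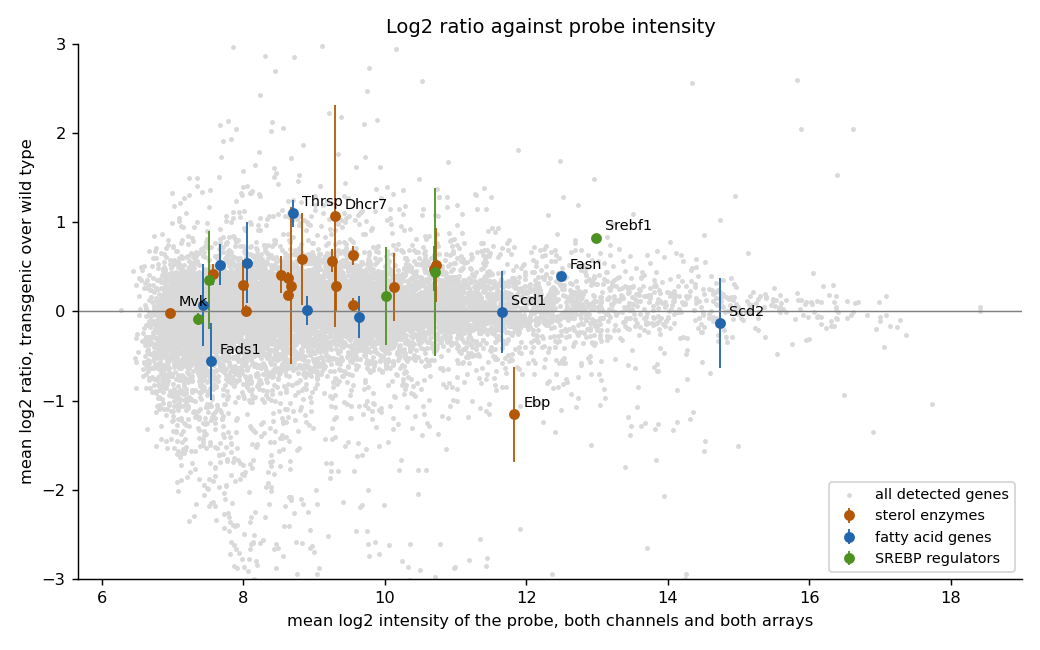
Mean log2 ratio of transgenic over wild type (y axis, bars are the SD of 2 arrays) against mean log2 intensity of the probe (x axis), with all detected genes in grey. The 67 genes beyond 3 in size are not drawn. The sterol enzymes other than Ebp lie near or above 0 across dim and bright probes, and Ebp lies at -1.16 among bright probes.

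Other genes around these pathways were read from a list of 43, of which 33 were detected. Of these, 13 were above 0 on both arrays and 4 below, beside 24.6% and 27.3% of all detected genes. Their median was 0.14. Stard4, a carrier of cholesterol in the cytosol, was at 0.62 ± 0.10 and passed the lower fold.

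On the fatty acid side of that list, Acsl3, an acyl-CoA synthetase of lipid droplets, had 7.45 and 7.33 in the wild type and 8.79 and 8.21 in the transgenic pool, and was called higher at 1.11 ± 0.32. Mlycd, which degrades malonyl-CoA, and Elovl7, an elongase, passed the lower fold at 0.60 ± 0.57 and 0.59 ± 0.48. Genes of fatty acid oxidation had a median of 0.07, with 1 of 5 above 0 on both arrays, near the 24.6% of all detected genes. The 3 NADPH enzymes had a median of 0.21. Abcg1, which exports cholesterol and is abundant in macrophages, was called lower at -1.49 ± 0.02. In the transgenic pool it was well above background on array 1 and not on array 2.

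Markers of other cells differed between the pools as well. All 8 prostate luminal markers stood well above background wherever they were measured, with a median of 0.13. Epcam was the highest at 0.90 ± 0.11, and 0 of 8 were called, beside 1.09% of all detected genes called higher and 3.53% lower. Their summed intensity was 138367 and 116368 in the wild type and 121120 and 149777 in the transgenic pool, which overlapped. All 8 leukocyte markers were called lower, and their summed intensity was 12765 and 17514.5 in the wild type and 2625 and 2686 in the transgenic pool. Of these, Ptprc, Cd3d and Laptm5 did not clear background for the transgenic pool on array 2, so their ratios there are against background. The 5 measured in both pools on both arrays ranged from -3.80 (Cd79b) to -1.79 (Aif1). Smooth muscle markers had a median of -0.30, with 0 of 5 called and sums of 27416.5 and 42016 in the wild type and 28091 and 22432 in the transgenic pool. The part of the leukocyte difference in the ratios of the sterol and fatty acid genes was not tested.

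Fat is the other tissue in which many of these genes are abundant, Thrsp, Fasn, Acly, Me1 and Scd1 among them. General fat markers had a median of 0.08, with 0 of 10 called in either direction. They ranged from Cfd, the protease adipsin, at -0.57 ± 0.09 to Retn, the hormone resistin, at 0.37 ± 0.15. Adipoq, the adipocyte hormone, stood at 0.10 ± 0.03, and the lipid droplet coat proteins Plin1 and Plin4 at 0.07 ± 0.04 and -0.24 ± 0.09. Of the 10, 4 were above and 2 below 0 on both arrays, beside 24.6% and 27.3% of all detected genes. Leptin (Lep) was not detected. Their summed intensity was 24792 and 25841 in the wild type and 24345 and 21812 in the transgenic pool. Of 6 brown fat markers, 4 were called higher: Ucp1, Cidea, Cox8b and Cox7a1, at 2.96, 2.13, 2.86 and 1.53. Ppargc1a was at 0.48 and Dio2 at -0.27, and the summed intensity of the list was 1043 and 854 in the wild type and 3366.5 and 2942 in the transgenic pool. Ucp1 and Cox8b were well above background in the wild type on 1 of 2 arrays. Of all detected genes, 1.09% were called higher and 3.53% lower, so 0 of 10 general fat markers lies near the share of all genes. The part of fat in the ratios of the lipid genes was not tested.

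**Figure D4:**
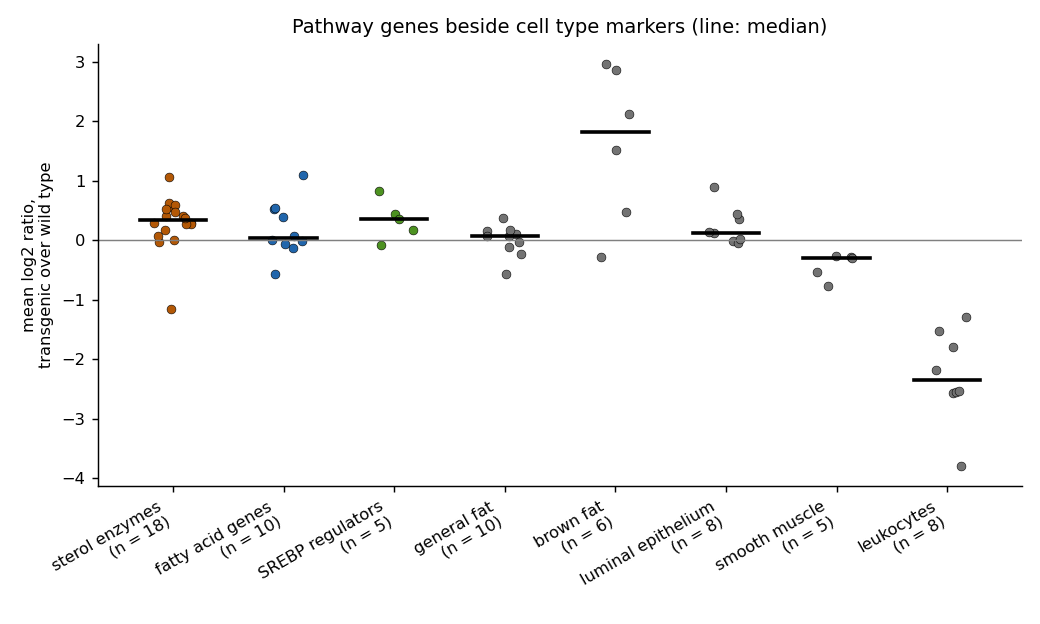
Mean log2 ratio of transgenic over wild type (y axis) for each detected gene of the 3 pathway lists and of 5 cell type marker lists (x axis), with the median as a line. Sterol enzymes centre at 0.34 with Ebp at -1.16, general fat markers centre at 0.08, 4 of 6 brown fat markers lie above 1, and leukocyte markers centre at -2.35.

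Signs and sizes both moved with the processing. The sign of each gene's ratio was followed over the setting used here and 9 others. It was read in the mean of the arrays, or on the array used where 1 was left out. By this count 15 of 18 sterol enzymes kept 1 sign (14 above 0, and Ebp below). So did 5 of 10 fatty acid genes (4 above, 1 below) and 1 of 5 regulators. Keeping 1 sign requires the same sign on both arrays under loess. Of all detected genes, 24.6% were above 0 on both arrays and 27.3% below. The share of all detected genes that kept 1 sign in every setting was not computed. In the mean of the arrays, the sterol enzymes above 0 numbered 16 of 18, and this number was 15 to 17 under the 9 other settings, of which 2 had no value for Mvk. The sterol median was 0.52 with Feature Extraction's own ratios and 0.46 in the authors' series table, and at the lower fold 11 and 10 genes were then higher. The share of all genes higher at that fold also rose, from 3.4% to 7.81% and 5.02%. Acss2 and Dhcr7 were called higher by both, beside Thrsp. Under median centring in place of loess the sterol median was 0.38, while the arrays parted. Only 4 of 33 genes were then above 0 on both arrays, and 0 were called in either direction. Of the 18 sterol enzymes, 1 was above 0 on both arrays, against 14 under loess. The share of all genes above 0 on both arrays was then 5.93%, so the loss was not limited to these genes. Ebp was then at -0.31 and -1.71, and Thrsp at 2.12 and 0.19. With Feature Extraction's ratios Ebp was not called, at -2.31 on array 1 and -0.54 on array 2. On array 2 alone neither Ebp (-0.78) nor Thrsp (0.99) passed 2-fold.

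**Figure D5:**
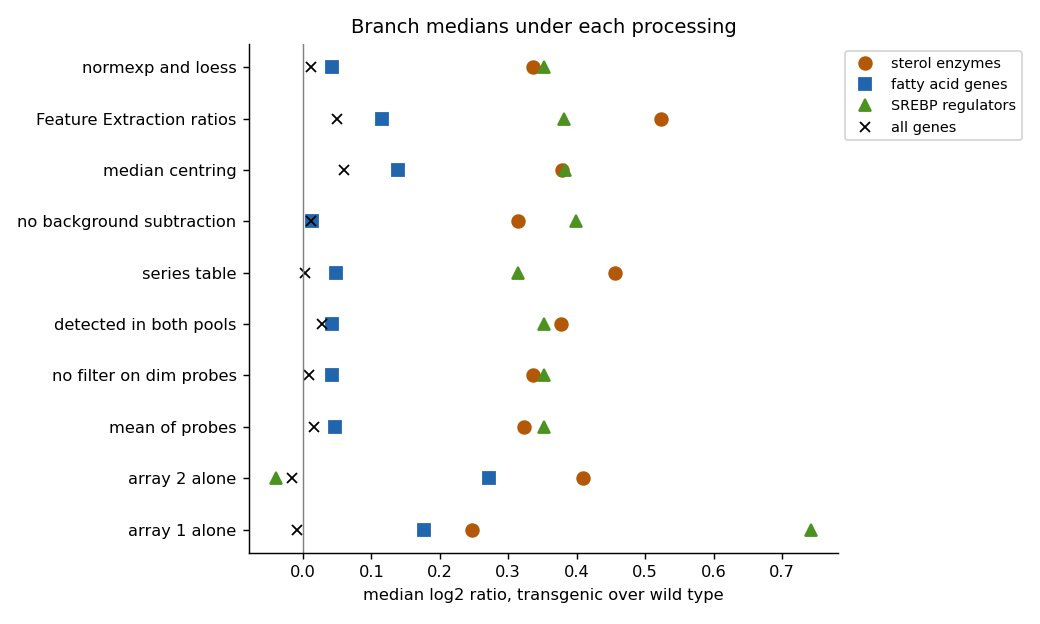
Median log2 ratio (x axis) of the sterol enzymes, fatty acid genes, regulators and all detected genes under each processing (y axis). The sterol median lies between 0.25 and 0.52 throughout, the fatty acid median between 0.01 and 0.27, and the regulator median moves from -0.04 on array 2 alone to 0.74 on array 1 alone.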

How the data were processed

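Total RNA of ventral prostate was pooled from 6 mice per genotype, and per the labels 100 ng was labelled with Cy3 or Cy5 and hybridised on 2 dye-swapped arrays. Per the file headers, Feature Extraction 11.0.1.1 of Agilent read the scans, on a grid of build mm9. The deposited files give spot and local background intensity as median pixel values with no normalization, processed intensity after background subtraction and dye normalization, and a log10 ratio of Cy5 over Cy3. They also carry flags, of which no spot was saturated (0 spots). The authors' series table holds log2 ratios of 15511 probes. Against the processed ratios turned to transgenic over wild type, its columns differed by constants of -0.08 and -0.05, and each column's median was 0. How its probes were chosen is not given in the sources.

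Each array went through normexp background correction (offset 50) and then loess, control and outlier spots at weight 0 (limma 3.58.1, R 4.3.3). The procedure was tested on simulated data. Outlier spots were left out of probe means. A probe counted as detected if at least 1 pool lay well above background on both arrays, and a gene took its detected probe of highest mean intensity. Pool intensities are after Aquantile normalization between arrays. Symbols came from RefSeq GRCm38.p6, and 27816 of 41174 probes matched. The mm9 and RefSeq builds differ, so only promoters and the microRNA carry coordinates, all of GRCm38.p6. Every detected gene of the 35 is given, and of the 43 surrounding genes those past the lower fold, except genes that are not reported here. The members and lists were chosen with earlier results of these data known. The 9 alternatives were Feature Extraction's ratios, median centring, no background subtraction, the series table, detection in both pools, no filter, the mean of probes and either array alone.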

Additional observations from a re-analysis of the deposited data

How the results depend on the processing

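No paired analysis was possible because each genotype had 1 pool. With Feature Extraction's own ratios 3 genes were called higher and 0 lower (2.22% and 6.75% of all genes), 11 were higher and 2 lower at the lower fold (7.81% and 11.7%), and 2 were below 0 on both arrays (28.6%). The sterol median was then 0.52, the fatty acid median 0.11 and their gap 0.41. In the authors' own ratios of the series matrix, 3 genes were called higher (1.25% of all), 10 were higher and 2 lower at the lower fold (5.02% and 8.41%), the sterol median was 0.46 and the gap 0.41. Under median centring 0 genes were called higher and 0 lower (0.712% and 2.91% of all), 3 were higher at the lower fold (2.65%), 4 were above and 2 below 0 on both arrays (5.93% and 9.68%), the fatty acid median was 0.14 and the gap 0.24. Median centring shifts each array by a constant and, unlike loess, fits no trend with intensity. The cause of the changes was not tested for any setting. With either array left out, 0 to 3 genes were called higher (1.95% to 3.24% of all) and 0 to 1 lower (4.24% to 4.31%), 7 to 8 were higher (5.81% to 11.5%) and 1 to 2 lower (9.93% to 11.1%) at the lower fold. The sterol median ranged from 0.25 to 0.41, the fatty acid median from 0.18 to 0.27, the regulator median from -0.04 to 0.74 and the gap from 0.070 to 0.14. Without background subtraction, with detection in both pools, with no filter or with the mean of probes, the counts stayed within 1.5-fold and the medians within the SD of the arrays. The number of pools, 1 per genotype, limits every value. Elovl6 and Fads2, whose Cy5 signals were not well above background, failed the detection rule. With no filter their mean log2 ratios were 0.18 and -0.00044.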
